A study of Arabidopsis thaliana with 48 samples.

Results

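Leaf transcripts of Arabidopsis thaliana were compared between the wild type Col-0 (Col) and the myb30 knockout, with the question of which genes differed between the lines whatever the leaf and the time. Of 19571 tested genes, 18 differed in every leaf and time (0.092%), 9 lower (0.046%) and 9 higher (0.046%) in myb30. A gene was placed among them when it passed the test of the line difference over 42 libraries and when, in each of 7 groups of leaf and time, all 3 myb30 libraries lay on the same side of all 3 Col libraries. They were therefore chosen by their values, and their count is a description with no test of its own. The lower genes included 3 long non-coding RNAs, the DNA methylation gene VIM3 and the threonine aldolase THA2. Among the higher genes were the flowering repressors MAF4 and MAF5 and a pair of disease resistance genes.

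Plants were 4 weeks old and grown on soil. All groups of the study are labelled as high light stress, for 0, 2, 8 or 30 min, and both leaf types were sampled in both lines. Local and systemic are the labels' names for the leaf types, which in work on systemic signalling are the treated leaves and the other leaves of the plant. The design text names pools of 20 plants and 3 repeats for each genotype and time. Comparisons used the local leaves of all 4 times and the systemic leaves of 2, 8 and 30 min, with 3 libraries of each line in each group, so 21 Col and 21 myb30 libraries of 48 in all. For the Col 30 min libraries the labels disagree, since their titles give 30 min and their time field 0 min, and the titles were followed. The myb30 plants are treated as a single line, no allele or crossing history being given in the sources used here, so the mutation in MYB30 and any other DNA difference between the lines cannot be told apart. All p-values rest on the spread between these libraries, which may be partly technical.

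MYB30 (AT3G28910) encodes an R2R3-MYB transcription factor, a protein that binds DNA and changes the output of nearby genes. It is known for promoting hypersensitive cell death during pathogen attack and for activating genes that make very-long-chain fatty acids, the precursors of leaf waxes. Flowering repressors of the FLC family, which are found among the higher genes, are MADS-box factors that delay the switch from leaves to flowers.

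Libraries held 70514715 to 89402096 reads in genes. The 6 systemic libraries at 0 min were left out of the comparison because the genotype labels of the replicates 3 were in doubt. In the library labelled Col systemic 0 min replicate 3, 16 of the 18 genes lay nearer to the mean of the myb30 libraries. In the library labelled myb30 systemic 0 min replicate 3, 15 of 18 lay nearer to the Col mean. In replicates 1 and 2 of the same group, which were not used to choose the genes either, 0 and 2 of 18 lay nearer to the other line in Col and 1 and 4 in myb30. In the 42 compared libraries the count was at most 5, which the choice of genes keeps low.

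Over the 7 groups, 3501 genes (17.9% of those tested) passed an adjusted p of 0.05 in limma, 1824 higher (9.32%) and 1677 lower (8.57%) in myb30. Most of these differences were small, with a median size of 0.14 on the log2 scale, and 38 reached 1 or more. Of the 3501 genes, 1703 kept their direction in all 7 groups, while 1798 did not, so a call is not a constant difference. The split between higher and lower depended on the scaling. It was 52.1% higher with the deposited values, 82.5% when each library was scaled to the same total and 43.8% after quantile normalisation, while scaling to the same total moved the median of all tested genes from 0.0016 to 0.034. With an estimated correlation of 0.316 between the local and systemic libraries that share line, time and number, 1975 genes passed (10.1%). The largest adjusted p among the 18 genes was then 0.000306.

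The requirement of no overlap in all 7 groups left 0.092% of tested genes. One group alone left many more, from 9.06% in local leaves at 0 min to 18% in local leaves at 2 min. In 8 of the 18 (0.0409% of tested genes), not even the highest library of the lower line reached the lowest library of the other line over all 21 and 21. The count depended on which groups were asked for. It was 48 without the local libraries at 0 min, 28 without the local libraries at 30 min and 18 to 21 without any other group. It ranged from 18 to 23 when single libraries were left out. It was 23 without myb30 local 0 min replicate 1, and 22 without Col local 0 min replicate 3 or without Col local 30 min replicate 3. With replicates 1, 2 or 3 of every group left out it was 70, 49 or 41, since 2 libraries part from 2 more often than 3 from 3.

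Transcripts of MYB30 itself were present in the mutant. The 21 Col libraries ranged from 244 to 1039 normalised counts (reads divided by a size factor of the library), with a median of 754, and the 21 myb30 libraries from 176 to 800.0, with a median of 451. MYB30 was lower in myb30 (log2 difference -0.61 ± 0.073 SE, adjusted p = 3.57e-07 in limma). Its libraries were separated in 6 of 7 groups and overlapped in systemic leaves at 2 min, so it is not among the 18. Taken one group at a time, MYB30 passed in none (adjusted p from 0.0723 to 0.803 in limma). The deposited table sums reads over the whole gene and does not show where in the gene they lie.

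**Figure D1:**
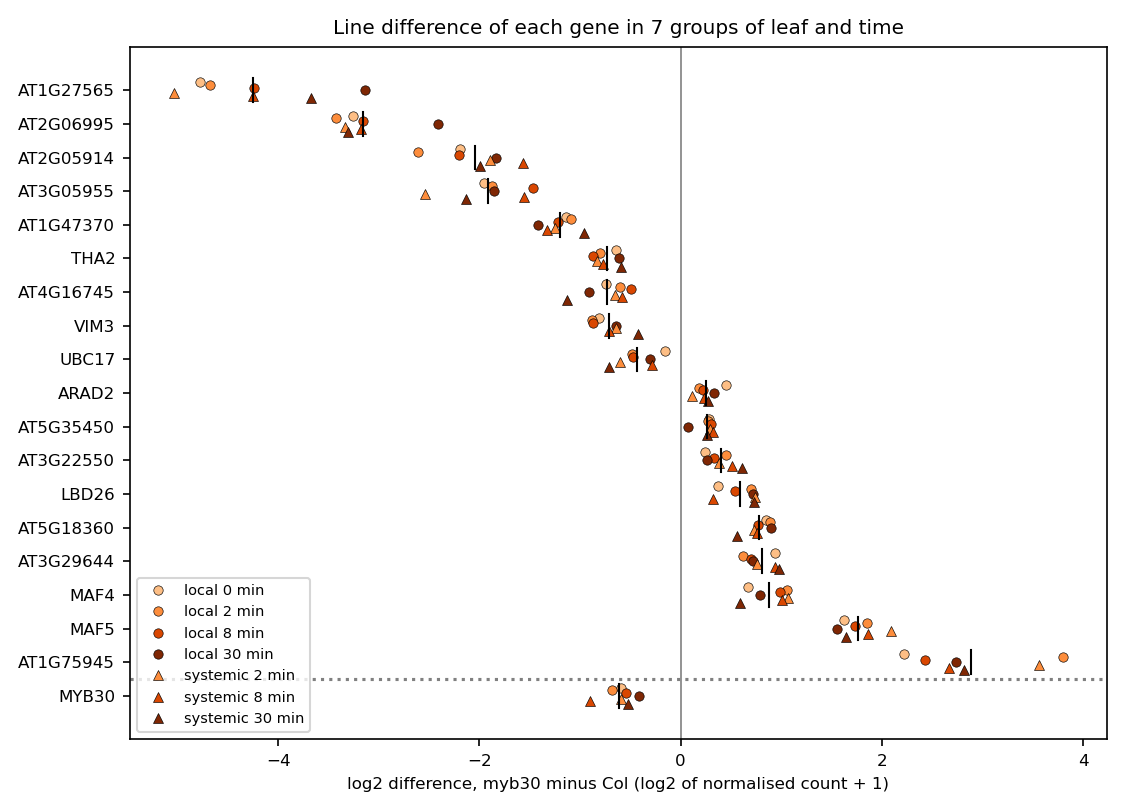
Log2 difference of myb30 minus Col (horizontal axis, on the log2 of normalised count + 1 scale) for the 18 genes and, under the dotted line, MYB30, with a circle for each local group, a triangle for each systemic group and a black bar for the value over 7 groups. All 7 values of each gene lie on one side of 0, from -5.03 for AT1G27565 in systemic leaves at 2 min to 3.80 for AT1G75945 in local leaves at 2 min; the size for AT1G27565 rests on the added constant of 1.

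The largest difference on each side belonged to a pair of short, uncharacterised protein-coding genes on chromosome 1. AT1G27565 was lower and AT1G75945 higher in myb30. AT1G27565 (chr1:9574550-9575189, plus strand, TAIR10.1) ranged from 7.17 to 76.0 normalised counts in Col, with a median of 20.4, and from 0 to 1.08 in myb30, where 16 of 21 libraries were at 0. In reads, 545 were counted in Col and 5 in myb30, a ratio of 107 after allowing for depth (95% exact interval 45.8 to 332, counting error only). Every Col library lay above every myb30 library (log2 difference -4.25 ± 0.20, adjusted p = 3.13e-18 in limma). The fitted size rests on the added constant and ranged from -6.31 to -1.88 over the alternatives. AT1G75945 (chr1:28515245-28515916, minus strand) ranged from 24.1 to 278 in Col, with a median of 95.6, and from 468 to 955.5 in myb30, with a median of 710.4. It was higher in all myb30 libraries (log2 difference 2.89 ± 0.16, adjusted p = 2.89e-16 in limma). Its Col level varied between groups: Col local leaves held 189 ± 77.4 (SD, n = 3) at 0 min and 64.1 ± 34.8 at 2 min, against 852 ± 173 and 788 ± 70.7 in myb30.

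These genes also had the longest run of identical letters among the 153 pairs of upstream sequences of the 18 genes. The 250 bases before each gene start, taken from the RefSeq TAIR10.1 genome on the strand of the gene, are shown to compare them, with the shared run of 22 bases in capitals. The run starts 80 bases before AT1G27565 (chr1:9574300-9574549, plus strand) and 93 bases before AT1G75945 (chr1:28515917-28516166, minus strand).
AT1G27565: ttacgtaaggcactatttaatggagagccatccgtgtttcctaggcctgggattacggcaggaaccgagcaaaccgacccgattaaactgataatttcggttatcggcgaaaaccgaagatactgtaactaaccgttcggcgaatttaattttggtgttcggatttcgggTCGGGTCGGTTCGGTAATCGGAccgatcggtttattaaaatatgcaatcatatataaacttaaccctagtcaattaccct
AT1G75945: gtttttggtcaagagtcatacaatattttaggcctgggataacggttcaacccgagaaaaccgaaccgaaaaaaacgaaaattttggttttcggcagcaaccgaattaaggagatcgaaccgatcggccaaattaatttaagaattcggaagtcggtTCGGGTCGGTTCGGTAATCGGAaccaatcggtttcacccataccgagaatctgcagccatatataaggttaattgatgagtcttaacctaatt
On either strand the run was found upstream of only these 2 of 19442 tested genes with a full window (0.0103%). The longest run shared by their exons was 15 bases.

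The 4 long non-coding RNAs among the 18 genes make up 22.2% of them, against 1.72% of tested genes. No function is annotated for these 4. Of all 337 tested long non-coding RNAs, 23 passed over the 7 groups, a smaller share than the 17.9% of all tested genes. AT2G06995 (chr2:7633214-7634069, plus strand) ranged from 64.0 to 195 in Col, with a median of 154, and from 6.48 to 32.7 in myb30, with a median of 15.4. The lines did not overlap (log2 difference -3.15 ± 0.12, adjusted p = 4.91e-21 in limma). Its Col level was 68.1 ± 4.11 in local leaves at 30 min and 146 ± 41.5 to 179 ± 13.5 in the other groups, while the myb30 means stayed between 13.0 and 21.3. The difference in local leaves at 30 min was the smallest of the 7 groups, at -2.41 ± 0.32 (adjusted p = 4.92e-05 in limma).

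AT2G05914 (chr2:2263124-2264543, minus strand) ranged from 40.3 to 108 in Col, with a median of 62.6, and from 6.57 to 28.9 in myb30, with a median of 15.2 (log2 difference -2.04 ± 0.12). The annotated gene on its opposite strand, AT2G05915, was at 0 in all compared libraries. AT3G05955 (chr3:11586005-11586548, minus strand) ranged from 56.9 to 168 in Col, with a median of 127, and from 10.6 to 51.0 in myb30, with a median of 32.0 (log2 difference -1.91 ± 0.12). AT3G29644 (chr3:11498879-11501424, minus strand) was the one non-coding RNA that was higher in myb30, with 295 to 397 and a median of 355 against 139 to 264 and a median of 198 in Col (log2 difference 0.81 ± 0.052). None of the 3 overlapped between the lines. Reads of AT3G29644 cannot be told apart from those of the pseudogene AT3G29642 on its opposite strand, since the strand setting of the counting is not given in the sources used here.

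**Figure D2:**
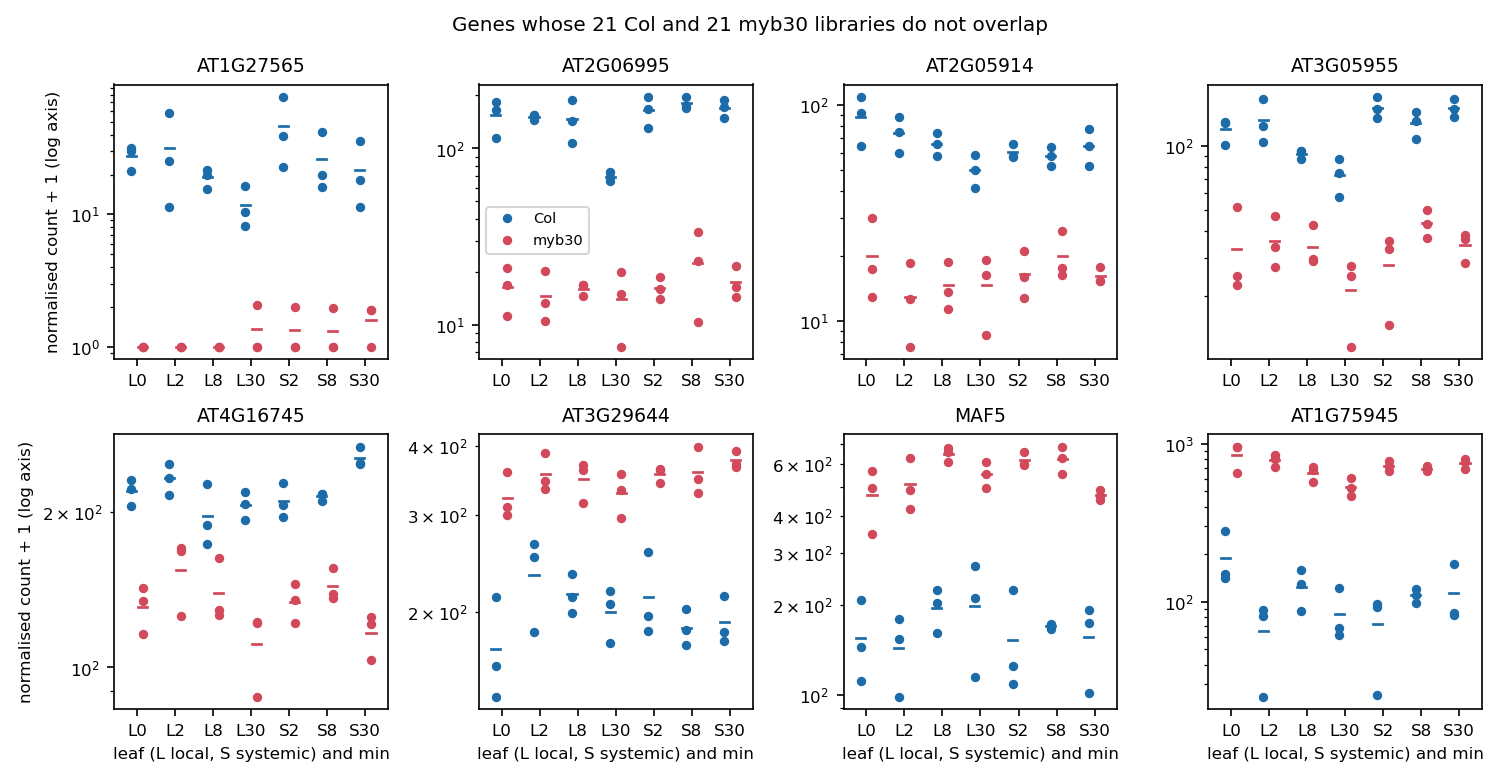
Normalised count + 1 (log axis) in each of the 42 libraries for the 8 genes without overlap, by leaf (L local, S systemic) and minutes, with Col in blue, myb30 in red and a short line at the mean of 3 libraries. In each panel all blue points lie on one side of all red points; AT1G27565 sits at or near 0 counts in myb30, and AT1G75945 at 468 or more.

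MAF4 and MAF5 are neighbours on chromosome 5 with 1.302 kb between them, and both encode MADS-box relatives of the flowering repressor FLC. MAF5 (AT5G65080, chr5:25997504-26002619, plus strand) ranged from 97.5 to 271 in Col, with a median of 171, and from 348 to 684 in myb30, with a median of 568. The lines did not overlap, and the log2 difference was 1.77 ± 0.099 (adjusted p = 2.89e-16 in limma). It passed in all 7 groups, from 1.55 in local leaves at 30 min to 2.09 in systemic leaves at 2 min. MAF4 (AT5G65070, chr5:25992193-25996202, plus strand) ranged from 240.2 to 527 in Col, with a median of 324, and from 471 to 752 in myb30, with a median of 594. Its lines overlapped only across groups, with Col highest in local leaves at 0 min (426 ± 90.4) and myb30 lowest in systemic leaves at 30 min (502 ± 27.0). The log2 difference was 0.88 ± 0.066 (adjusted p = 1.43e-12 in limma), and it passed in 5 of 7 groups.

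Upstream of MAF4 and MAF5 lay the second longest shared run, 20 bases, shown in capitals in the 250 bases before MAF4 (chr5:25991943-25992192, plus strand, TAIR10.1) and before MAF5 (chr5:25997254-25997503, plus strand), from RefSeq.
MAF4: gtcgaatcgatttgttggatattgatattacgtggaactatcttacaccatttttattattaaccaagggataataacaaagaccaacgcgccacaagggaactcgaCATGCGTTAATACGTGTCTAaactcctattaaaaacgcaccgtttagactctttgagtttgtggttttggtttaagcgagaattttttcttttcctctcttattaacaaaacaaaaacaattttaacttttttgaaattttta
MAF5: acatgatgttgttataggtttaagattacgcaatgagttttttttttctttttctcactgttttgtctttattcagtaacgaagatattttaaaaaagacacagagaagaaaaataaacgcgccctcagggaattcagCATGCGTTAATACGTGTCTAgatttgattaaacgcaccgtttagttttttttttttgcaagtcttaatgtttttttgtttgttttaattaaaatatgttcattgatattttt
The run starts 143 bases before MAF4 and 112 bases before MAF5 and was found upstream of no other tested gene on either strand. The exons of MAF4 and MAF5 share a run of up to 43 bases, so a part of their reads could be assigned to either gene.

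Among the other flowering genes, the paralogs MAF2, MAF3 and FLM did not pass. MAF3, which lies 0.781 kb from MAF4, stood at 874 ± 129 in Col and 879 ± 110 in myb30 (SD, n = 21; log2 difference 0.013 ± 0.032, adjusted p = 0.823 in limma). MAF2 had a log2 difference of -0.011 ± 0.040 and FLM of -0.020 ± 0.026. FLC was higher in myb30 at 306 ± 48.9 against 238 ± 40.8 (0.37 ± 0.058, adjusted p = 4.3e-05 in limma), and its libraries were separated in 4 of 7 groups. SOC1, a promoter of flowering that FLC represses, was lower at 2752 ± 550.1 against 3371 ± 770.1 (-0.28 ± 0.049, adjusted p = 0.000125). The repressors TEM1 and TEM2 were higher by 0.52 ± 0.11 and 0.40 ± 0.13, although the call of TEM2 was lost with the estimated correlation (adjusted p = 0.0645 in limma). In all, 5 of 16 tested flowering genes were higher and 1 lower (37.5% called, against 17.9% of all tested genes), with a median of 0.025 against 0.0016 over all tested genes. The 5 include MAF4 and MAF5, which had already been chosen by their values. FT, TSF and VIN3 were too low to be tested.

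**Figure D3:**
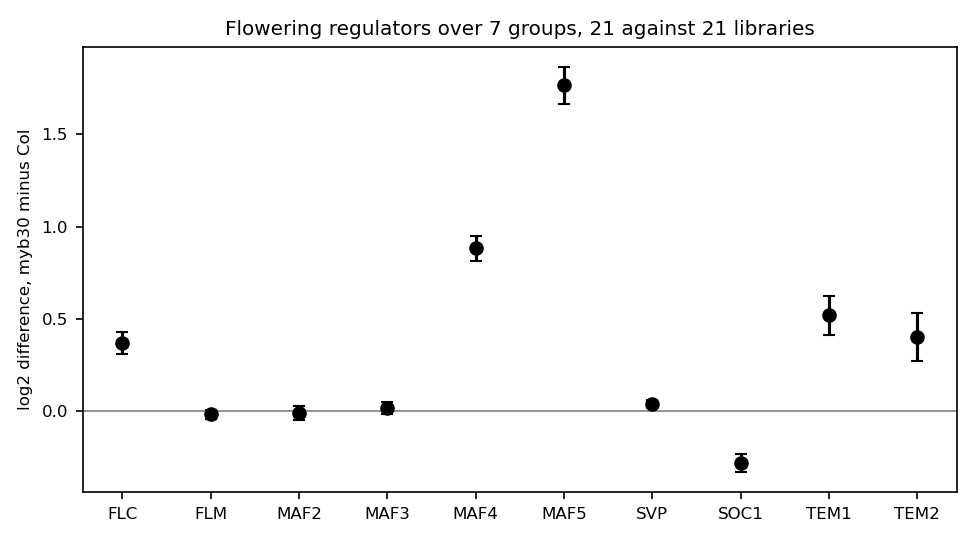
Log2 difference of myb30 minus Col over 7 groups (points) with its standard error (bars) for 10 flowering regulators, 21 against 21 libraries. MAF5 at 1.77 and MAF4 at 0.88 stand above FLC at 0.37, while FLM, MAF2, MAF3 and SVP lie between -0.020 and 0.037.

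Immune receptors were found on both sides. AT1G47370, annotated as a TIR-domain protein (chr1:17365898-17368703, minus strand), ranged from 49.8 to 128 in Col, with a median of 73.0, and from 11.9 to 72.4 in myb30, with a median of 30.1 (log2 difference -1.20 ± 0.11, adjusted p = 2.45e-10 in limma). AT5G18360, a TIR-NBS-LRR gene (chr5:6079768-6083077, minus strand), ranged from 152 to 354 in Col, with a median of 226, and from 316 to 534 in myb30, with a median of 402. It was higher by 0.78 ± 0.056 (adjusted p = 4.46e-13 in limma) and passed in 6 of 7 groups. AT5G35450, a CC-NBS-LRR gene, had the second smallest difference of the 18, with 821 to 1448 in Col and 967 to 1581 in myb30 (0.26 ± 0.031), and passed in none of the 7 groups taken one at a time. NLR genes belong to large families of similar copies, so reads could be shared with relatives.

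Of 18 tested NLR genes on a list of known receptors, 4 were higher and none lower (22.2% called, against 17.9% of all genes). With edgeR 4 were higher and none lower, where 18.2% of all tested genes were called. The receptors called in limma were SUMM2 (0.18 ± 0.026), RPP13 (0.14 ± 0.030), ADR1 (0.23 ± 0.058) and RPP1 (0.095 ± 0.026).

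The rest of the lower genes have enzyme and DNA methylation roles. VIM3 (AT5G39550), a RING-finger protein of the VARIANT IN METHYLATION family that helps maintain CG methylation of DNA, ranged from 345 to 638 in Col, with a median of 549, and from 211 to 433 in myb30, with a median of 325. Its log2 difference was -0.71 ± 0.045 (adjusted p = 1.1e-14 in limma) and passed in 6 of 7 groups. THA2 (AT3G04520), a threonine aldolase that splits threonine into glycine and acetaldehyde, ranged from 725 to 1117 in Col, with a median of 917, and from 388 to 772 in myb30, with a median of 535 (log2 difference -0.73 ± 0.068, adjusted p = 6.43e-10 in limma). AT4G16745, an exostosin-family protein, ranged from 172 to 266 in Col and from 86.8 to 169.5 in myb30, with no overlap (-0.73 ± 0.056). UBC17 (AT4G36410), a ubiquitin-conjugating enzyme, ranged from 141 to 377 in Col and from 122 to 256 in myb30 (log2 difference -0.43 ± 0.062, adjusted p = 9.74e-06 in limma), and passed in 1 group taken alone. It stood at 225 ± 17.5 in Col and 202 ± 3.16 in myb30 in local leaves at 0 min (-0.15 ± 0.16, adjusted p = 0.974 in limma), and at 326 ± 69.0 and 197 ± 18.9 in systemic leaves at 30 min (-0.71 ± 0.16, adjusted p = 0.0227). In local leaves at 0 min its lowest Col library was at 205.23 and its highest myb30 library at 203.84.

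The remaining higher genes differed by 0.26 to 0.59. LBD26 (AT3G27940), a transcription factor of the LOB-domain family, ranged from 104 to 216 in Col, with a median of 169, and from 154 to 323 in myb30, with a median of 242 (0.59 ± 0.054, adjusted p = 5.52e-10 in limma). AT3G22550, annotated with a DUF581 domain, ranged from 674 to 1924 in Col and from 1025 to 2403 in myb30 (0.40 ± 0.044). ARAD2 (AT5G44930), of the ARABINAN DEFICIENT exostosin family, was the gene with the smallest difference of the 18, with 603 to 1145 in Col and 718 to 1447 in myb30 (0.26 ± 0.030, adjusted p = 1.71e-07 in limma). It was lowest in local leaves at 30 min in both lines, at 624 ± 18.4 in Col and 786 ± 65.7 in myb30. Part of its gene lies opposite to AT5G44920, which stood at a mean of 35.8 and was called higher as well (0.32 ± 0.11, adjusted p = 0.0298).

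Taken one group at a time, with the spread shared by all groups, far fewer genes passed over the whole table: 15 in local leaves at 0 min (0.0766%), 176 at 2 min (0.899%), 52 at 8 min (0.266%) and 307 at 30 min (1.57%), and in systemic leaves 136 at 2 min (0.695%), 18 at 8 min (0.092%) and 159 at 30 min (0.812%). Of the 18 genes, 10 to 14 passed in each group, 85 of 126 cases in all, and 7 genes passed in every group. These calls rest on the shared spread. With each group fitted alone, at 3 against 3 libraries, 0 to 3 genes of the whole table passed in each group and 0 to 2 of the 18. The groups used the same libraries as the choice of genes, so these counts describe the genes and test nothing further. With the library number as a block, in the groups where numbers paired the libraries and fitted alone, 6 genes passed in local leaves at 0 min, 176 in local leaves at 2 min (161 higher and 15 lower, against 135 and 41 with the shared spread) and 96 in systemic leaves at 8 min. Of the 18 genes, 4, 9 and 7 were among them.

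The size of the line difference varied between leaves and times for 135 of 19571 genes (0.69%, F test in limma). None of the 18 was among them, nor with edgeR, which called 132. An unadjusted p under 0.05 was reached by 1 of the 18, against 8.32% of tested genes, and the smallest adjusted p was 0.438, for AT4G16745. The 18 were chosen from these libraries for keeping one side in all 7 groups, which disfavours varying differences. The counts for the 18 therefore describe them and test nothing further. They do not show that the difference was equal everywhere: for AT1G75945 it ran from 2.22 ± 0.39 in local leaves at 0 min to 3.80 ± 0.39 in local leaves at 2 min.

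The systemic libraries at 0 min had no part in choosing the genes. They share line, time and number with local libraries at 0 min that did, so they may not be independent of the choice. In replicates 1 and 2, 18 of 18 genes differed in the same direction as over the 7 groups (52.2% of all tested genes did), and in 16 the 2 lines did not overlap (19.3% of all tested genes). The exceptions were AT5G35450 and AT3G22550. AT2G06995 stood at 147 and 116 in Col and at 11.01 and 20.3 in myb30, MAF5 at 114 and 143 against 627 and 389, and AT1G75945 at 191 and 56.4 against 844 and 714. AT1G27565 stood at 16.5 and 45.3 in Col and at 0 in both myb30 libraries. MYB30 itself overlapped, at 679 and 752 in Col and 527 and 818 in myb30 (log2 difference -0.12), so that myb30 replicate 2 lay above both Col libraries. With these 2 against 2 libraries no gene passed limma's adjusted threshold, and 1156 genes had an unadjusted p under 0.05.

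With all 6 libraries as labelled, 15 of 18 genes kept the direction (48.3% of all tested genes) and the lines did not overlap in 1, UBC17 (4.17% of all tested genes). With the replicates 3 exchanged, an arrangement chosen with earlier results of these data known, the counts were 18 (56% of tested genes) and 14 (4.42% of tested genes). Replicate 3 labelled Col held 21.9 of AT2G06995, 509.6 of MAF5 and 891 of AT1G75945. Replicate 3 labelled myb30 held 125, 221 and 258. On a scale where 0 is the Col mean and 1 the myb30 mean of the other groups, the median position of the 18 genes was -0.14 and -0.099 in Col replicates 1 and 2 and 0.99 in Col replicate 3. It was 1.01 and 0.65 in myb30 replicates 1 and 2 and 0.035 in myb30 replicate 3.

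**Figure D4:**
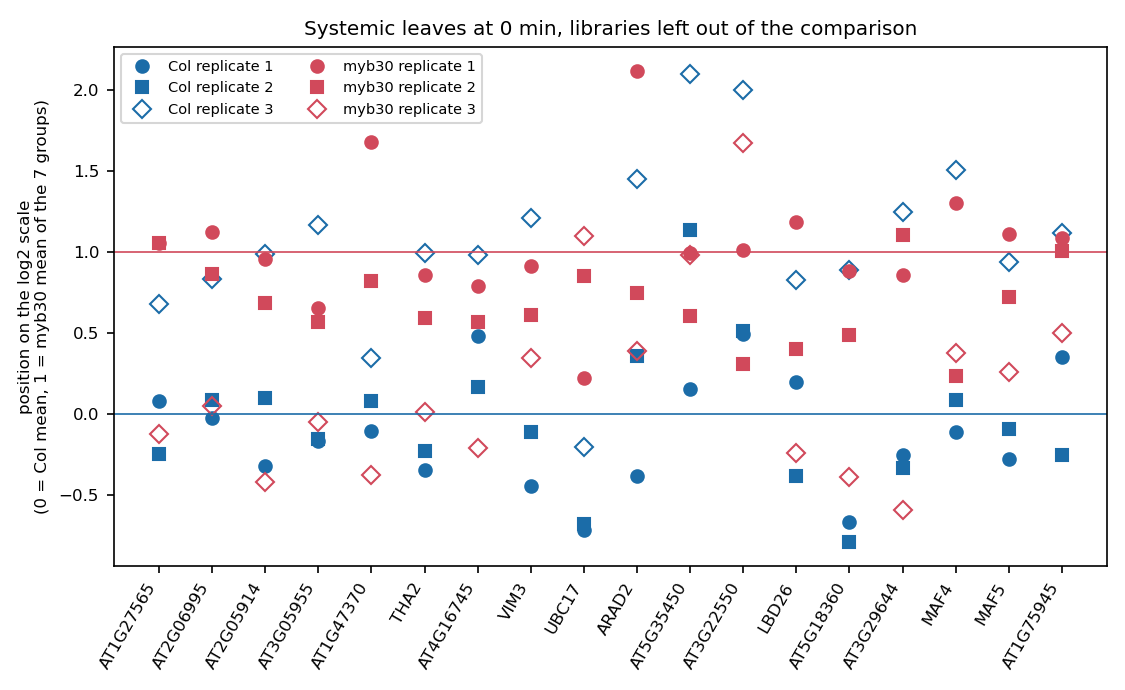
Position of each systemic library at 0 min between the lines on the log2 scale (0 the Col mean and 1 the myb30 mean of the 7 groups; vertical axis) for the 18 genes, with open diamonds for the replicates 3. The open blue diamonds, labelled Col, have a median of 0.99 and the open red ones, labelled myb30, a median of 0.035.

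The 18 genes were spread over all 5 chromosomes, with 3, 2, 5, 2 and 6 on chromosomes 1 to 5. MYB30 lies on chromosome 3 (chr3:10911132-10913190, plus strand), and within 1 Mb of its centre on each side lay 193 tested genes (0.986%), 41 of them called (21.2%, against 17.9% of all tested genes). Among them were 3 of the 18, LBD26 at 0.537 Mb, AT3G29644 at 0.588 Mb and AT3G05955 at 0.674 Mb. Of the 65 genes without overlap in at least 6 of 7 groups, 6 lay in this window, MYB30 itself included. The 3 and the 6 stand beside the window's 0.986% of tested genes, and their cause was not tested. Of the 36 nearest tested neighbours of the 18 genes, 10 were called, beside 17.9% of all tested genes, 8 of them in the direction of the gene they adjoin, MAF4 and MAF5 themselves included.

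Known MYB binding sites were searched in the 250 bases upstream on both strands. The AC element ACCTACC was found upstream of none of the 18 and of 1.21% of 19442 tested genes. Neither was ACCAACC, found upstream of 2.75%, nor the element ACCTAAC, found upstream of 2.35%. The MYB site AACAAAC was found in 2 of 18 (11.1%), VIM3 and MAF5, against 10.8% of tested genes. These matches are letters in a window and not measured binding.

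Just outside the rule stood 47 genes separated in 6 of 7 groups, 30 lower and 17 higher, so that 0.332% of tested genes were separated in at least 6. The smallest p belonged to GIS (0.89 ± 0.087), a zinc finger gene of trichome initiation that overlapped in systemic leaves at 8 min, and next came the non-coding RNA AT3G05945 (0.63 ± 0.066), the nearest tested neighbour of AT3G29644. Inside the rule, the smallest differences were the 0.26 of ARAD2 and of AT5G35450 and the 0.40 of AT3G22550. Among the 30 lower genes, 22 overlapped at local 0 min only, and 9 had ribosomal protein products, against 1.58% of tested genes, a description chosen after the values were seen. An example is PRPL11, a plastid ribosomal protein, at 15491 ± 891 in Col and 14004 ± 657 in myb30 (-0.14 ± 0.023). All 30 were also called lower when scaled to the same total.

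Wax genes and the elongases of very-long-chain fatty acids, the group MYB30 is known for, were described from a list of 20 tested members. In myb30, 3 were lower and none higher (15% called, against 17.9% of all tested genes): LACS1, an acyl-CoA synthetase of cuticle lipids, at 851 ± 211 against 1187 ± 345 (-0.46 ± 0.057, adjusted p = 7.05e-07 in limma), CER4, a reductase that forms wax alcohols, at 39.5 ± 24.6 against 81.9 ± 42.4 (-1.09 ± 0.18, adjusted p = 9.77e-05), and CER1 of alkane synthesis (-0.30 ± 0.098, adjusted p = 0.0283). LACS1 was separated in 6 of 7 groups. The elongation genes KCS1 (0.15 ± 0.076) and KCS6 (0.11 ± 0.080) did not pass, and the median of the list was 0.036. Scaled to the same total, 2 members were lower and 1 higher, and after quantile normalisation 2 were lower. Among the 4 other close relatives of MYB30, MYB96 (0.19 ± 0.054) and MYB60 (0.14 ± 0.045) were higher, the second not with the estimated correlation (adjusted p = 0.0644 in limma). MYB96 changed sign between groups, from -0.25 in local leaves at 30 min to 0.45 in local leaves at 2 min. It did not pass the interaction test (adjusted p = 0.244, F test in limma). MYB60 kept its direction in all 7 groups.

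In the salicylate and immune list 5 of 21 were higher and none lower (23.8% called, against 17.9% of all tested genes), with a median of 0.28 against 0.0016 over all tested genes: SAG101 (0.28 ± 0.058), CBP60G (0.68 ± 0.17), WRKY46 (0.70 ± 0.19), NPR3 (0.37 ± 0.13) and PBS3 (0.44 ± 0.15). The last 2 were lost with the estimated correlation (adjusted p = 0.0904 and 0.0865 in limma). NPR3 changed sign between groups, from -0.23 in local leaves at 0 min to 0.84 in local leaves at 2 min. It did not pass the interaction test (adjusted p = 0.985, F test in limma). SAG101, CBP60G and WRKY46 kept their direction in all 7 groups. With edgeR 5 were higher and none lower, where 18.2% of all tested genes were called. Of 17 glucosinolate genes, 6 were higher and 1 lower (41.2% called, against the same 17.9%). The higher genes were led by the regulators MYB28 (0.24 ± 0.048), MYB51 (0.46 ± 0.096) and MYB29 (0.24 ± 0.051), and the lower gene was ESP (-0.099 ± 0.035). With the estimated correlation these 3 regulators were called, while ESP (adjusted p = 0.082 in limma) and the higher genes CYP79F2, CYP83A1 and MYB76 (adjusted p = 0.0848, 0.0857 and 0.112) were lost. Scaled to the same total, 8 glucosinolate genes and 6 NLR genes were higher and none lower. Of 21 nuclear photosynthesis genes, 11 were lower (52.4%, against 8.57% of all tested genes called lower), with a median of -0.073, among them PSAF (-0.12 ± 0.023) and LHCB1.1 (-0.12 ± 0.024). The count depended on the scaling: it was 7 with the same total and 1 after quantile normalisation, and 5 with the estimated correlation. In local leaves at 0 min PSAF and LHCB1.1 stood at -0.0035 and -0.016. In the other groups they ran from -0.073 to -0.19 and from -0.078 to -0.17. LHCB1.2 and LHCA1, also called lower, stood at 0.049 and 0.042 in local leaves at 0 min.

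Heat shock genes had 3 of 18 lower (16.7% called, against 17.9% of all tested genes), HSP15.7, BAG6 and HSP70B, and each call was lost with the estimated correlation (adjusted p = 0.102, 0.134 and 0.136 in limma). Scaled to the same total 1 was lower, and edgeR called 5 lower. For HSP15.7, BAG6 and HSP70B the log2 difference changed sign between groups. It was -0.99, -0.81 and -1.01 in local leaves at 30 min, and 0.35, 0.17 and 0.13 in the group where it was highest. None of the 3 passed the interaction test (adjusted p = 0.102, 0.647 and 0.139, F test in limma). Of 15 jasmonate genes and 8 reference genes, limma and edgeR called none, with an unadjusted p under 0.05 for 2 in each list. Phenylpropanoid genes had 3 of 15 higher (20%), ROS, calcium and antioxidant genes 3 higher and 2 lower of 20 (25%), clock genes 2 and 2 of 12 (33.3%), nutrient genes 2 of 15 higher (13.3%) and auxin and shade genes 1 of 13 lower (7.69%), each to be read against the 17.9% of all tested genes. Scaled to the same total, the ROS, calcium and antioxidant list had 7 higher and 1 lower, the phenylpropanoid list 5 higher, the clock list 2 higher and none lower, the nutrient list 3 higher and the auxin list 1 higher and 1 lower. After quantile normalisation the ROS, calcium and antioxidant list had 5 higher and 2 lower. With the estimated correlation the 5 lists had 1 higher, 1 higher, 2 higher, 1 higher and 1 lower.

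Marker lists of leaf tissues were counted in the same way, beside the 17.9% of all tested genes called. Calls were made for 1 of 6 guard cell genes (MYB60, higher), 1 of 4 epidermis genes (PDF1, lower), 2 of 4 mesophyll genes (RBCS1A and LHCB1.1, lower) and 2 of 4 senescence genes (SAG13 and NYE1, higher), and the root phosphate transporter PHT1;4 was higher, with the median of each list between -0.091 and 0.46. With the estimated correlation the calls of MYB60, PDF1, RBCS1A and NYE1 were lost (adjusted p = 0.0644, 0.1, 0.114 and 0.0569 in limma). The counts also depended on the scaling. With the same total 1 mesophyll gene was lower and no epidermis gene was called. After quantile normalisation no mesophyll or guard cell gene was called. The senescence and root counts were the same under both. Vascular, trichome, dividing tissue and flower lists had none, with an unadjusted p under 0.05 for 0 genes in limma and 0 calls in edgeR. With the same total 1 vascular gene was higher. The markers AP1, AP3, OLE1, SAG12 and PRP3 were too low to be tested. The summed guard cell markers ranged from 9543 to 14217 in Col and from 8794 to 15043 in myb30, the mesophyll markers from 3.27e+06 to 4.22e+06 and from 3.27e+06 to 3.93e+06, the epidermis markers from 25609 to 40003 and from 26060 to 41226, the senescence markers from 1697 to 2635 and from 1766 to 2654, and PHT1;4 from 11.3 to 108 and from 27.0 to 148. In bulk leaves, fewer cells of a type and less RNA per cell cannot be told apart, and the part of cell makeup in the line differences was not tested.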

How the data were processed

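RNA of leaf pools was sequenced in 48 libraries, grouped by sample titles. Values of the deposited table are a linear signal: read counts per gene over a size factor of the library, judged from the values. Multiplied by that factor, 100% of 1084756 values above 0 were whole within 1e-06, which gave read counts. Per the submitters' processing notes, the authors used DESeq2 1.20.0, STAR 2.4.0.1, the TAIR10 build, FastQC 0.11.7 and cutadapt 1.18; the counting tool and its strand setting: not given in the sources used here. Genes with a mean of at least 10 over 42 libraries (19571 of 32833) were tested with limma 3.58.1 (R 4.3.3, trend) on log2(value + 1), with line as the effect and the 7 groups of leaf and time as blocks. Differences are myb30 minus Col ± SE, adjusted by Benjamini-Hochberg, threshold 0.05. One fit of 14 group means gave each group and the interaction. Changes of low genes are understated on this scale. The 6 systemic 0 min libraries were a separate check.

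Library numbers paired Col with myb30 (all 3 correlations of deviations above 0.1) at local 0 min, local 2 min and systemic 8 min, not in the other groups; no label explains the numbers. Alternatives were edgeR 4.0.16 on counts, DESeq2 1.42.0 (no adjusted p for 4 genes), pseudocounts 0.5 and 8, no filter, other scalings, replicate blocks, an estimated correlation, and libraries, numbers or groups left out. The fits were tested on simulated data. Named by rule were members of the 18 whose higher line had a mean of 50 or more, or whose 21 and 21 libraries did not overlap, MYB30, and up to 4 called members of each list by smallest p; other names were chosen after their values were seen. The genes, lists and tests were chosen with earlier results of these data known. Symbols, positions and sequences come from RefSeq TAIR10.1 by locus identifier (32548 matched); upstream runs and identities were added after the data were seen. Of 293 list names 291 matched. Tables were made with Python 3.11.15 and pandas 2.3.3.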

Additional observations from a re-analysis of the deposited data

Results flagged for a closer look

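Among the named genes, the phosphate-starvation gene SPX1 (AT5G20150) was marked because its line difference varied between leaves and times (interaction adjusted p = 0.01587 in limma). It was higher in myb30 by 0.65 ± 0.19 over the 7 groups, but the value was lost with the estimated correlation (adjusted p = 0.0658 in limma). In systemic leaves at 30 min the 3 Col libraries held 558, 893 and 1167 normalised counts and the 3 myb30 libraries 6603, 4492 and 7506, a log2 difference of 2.86 (adjusted p = 1.74e-05 in limma). In the other 6 groups the log2 differences ran from 0.094 to 0.57, and none passed. In local leaves at 30 min both lines were high, at 22950 ± 5538 and 33564 ± 3900.3. The cause was not tested.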

How the results depend on the processing

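The direction and the call of all 18 genes and MYB30 held in 1292 of 1292 combinations of gene and alternative (68 alternatives), with adjusted p up to 0.0237. The choice of the genes fixes much of this, and the 1292 do not cover the lack of overlap in each group. The line difference over 7 groups of leaf and time stood at 3501 calls, against 3562 with edgeR (3380 shared). It was 1541 at a threshold of 0.01, 1975 with the estimated correlation, 663 in local and 873 in systemic leaves alone, 1915, 2324 and 2051 without the local 2 min, local 8 min or systemic 2 min libraries, and 1416 to 2875 without one replicate number. Single libraries left out gave 2923 to 4053. The count of genes that differ in every leaf and time was 39 in local and 150 in systemic leaves alone, which ask for fewer groups, 48 and 28 without local 0 or 30 min, 41 to 70 without one number, 1 with the systemic 0 min libraries added as labelled, and 14 with their replicates 3 exchanged. That count was 17 (8 higher and 9 lower) after quantile normalisation and 19 (11 higher and 8 lower) with the same total. Not all of the 18 therefore kept the lack of overlap under other scalings. With a replicate block of 21 pairs 4043 genes were called and 18 differed everywhere; the numbers paired the libraries in only 3 of the groups. For the line difference within each leaf and time, fitting each group alone gave 1, 0, 2 and 0 calls in local leaves (0, 2, 8 and 30 min) and 1, 3 and 3 in systemic leaves (2, 8 and 30 min), and with a replicate block 6, 176, 0 and 0, and 69, 96 and 1. Without one number the local groups gave 4 to 6, 10 to 159, 3 to 14 and 18 to 339 calls, and the systemic groups 6 to 69, 2 to 3 and 10 to 112. The line by leaf and time interaction gave 260 calls with a replicate block and 0 to 32 without one number. In systemic 0 min leaves 0 genes passed (1031 at an unadjusted p under 0.05), and 1 without replicate 1. Counting depth limits AT1G27565, with 5 reads in myb30. The causes of these shifts were not tested.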
